A study of Mus musculus with 30 samples.

Results

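Axon injury in retinal ganglion cells is sensed by a kinase cascade and answered by a small set of transcription factors, stress genes and NAD enzymes, and 10 genes of this response were followed in newborn mouse retina. They are the kinases Map3k12 and Map3k13, the transcription factors Jun, Atf3 and Ddit3, the axon degeneration genes Sarm1 and Nmnat2, and the stress genes Gadd45a, Gadd45b and Trp53inp1. Each gene was taken by its symbol, and all 10 of 10 were found among the 38720 genes listed in both deposited tables. All 10 also passed the filter on low values, a mean normalised count of at least 10, in both comparisons.

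The retinas came from postnatal day 0 pups and were dissociated with papain. Magnetic beads carrying an antibody to CD90, which Thy1 encodes, divided them into a bead-selected fraction labelled retinal ganglion cells (RGCs) and a remaining fraction of other retinal cells, labelled as pooled together (non-RGC). Poly(A) RNA was sequenced, and the deposited tables cover 9 libraries in 3 groups of 3, namely mutant non-RGC, mutant RGC and wild type (WT) RGC. WT mice were C57BL/6. The tables call the mutant only "mut", and the labels hold a pair of mutant genotypes, Math5Cre; Ezh2f/f and Math5Cre; Ezh2f/fG9af/+, so both mutants carry the Math5Cre transgene and floxed Ezh2 and the second also 1 floxed copy of G9a. Which one was tabulated was not given in the sources used here. Math5 (Atoh7) is a gene of the ganglion cell lineage, so Cre acts in part of the retina, and the WT group is labelled by its strain alone, so no group carries Cre without floxed alleles. The labels do not tie libraries to separate animals, so p-values measure only the spread between these libraries.

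In neurons, damage to the axon activates the kinases DLK (Map3k12) and LZK (Map3k13), which signal through JNK to the transcription factor Jun and raise Atf3 and Ddit3, and in the injured optic nerve this pathway is known for driving both ganglion cell death and regrowth. A second arm acts within the axon itself, where the NAD-producing enzyme Nmnat2 holds the NAD-consuming enzyme Sarm1 inactive until the axon is cut. The GADD45 proteins and Trp53inp1 belong to general stress and p53 responses.

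The 9 libraries held 10551825 to 12259494 assigned reads, and the mean chi-square per gene between libraries of 1 group was 1.89 to 21.1, above the value of counting error alone. Library numbers follow the order of size factors within a group and pair nothing across groups. Ezh2 and Ehmt2 (the G9a gene) were counted over the whole gene, so their counts check neither the deletion nor the labels. The summed normalised count of 26 ganglion cell markers was 13209 to 20062 in mutant non-RGC libraries, 28781 to 44338 in mutant RGC libraries and 55794 to 65457 in WT RGC libraries. The label of the bead-selected fraction therefore describes an enrichment: Thy1 itself had 964, 1501 and 1425 normalised counts in mutant RGC libraries and 2321, 2442 and 2073 in WT RGC libraries. Markers of proliferating cells summed to 43164 to 44253 in mutant non-RGC, 35990 to 37456 in mutant RGC and 16227 to 28057 in WT RGC libraries. Markers of microglia summed to 159 to 223 in mutant non-RGC, 2512 to 9681 in mutant RGC and 4048 to 5939 in WT RGC libraries. Markers of pigment epithelium summed to 463 to 592 in mutant non-RGC, 438 to 946 in mutant RGC and 270 to 378 in WT RGC libraries, and of this list Rpe65 was at 0 in every library but mutant RGC library 1. In each group 1 library stood apart. Mutant non-RGC library 3 had 10.3 normalised counts of Thy1, against 209 and 351 in the other libraries of its group. WT RGC library 3 had the highest proliferation sum and the lowest ganglion cell sum of its group, and in the mutant RGC group library 1 was lowest in ganglion cell markers and highest in microglial ones. In bulk libraries such as these, fewer cells of a type and less RNA per cell cannot be told apart.

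**Figure D1:**
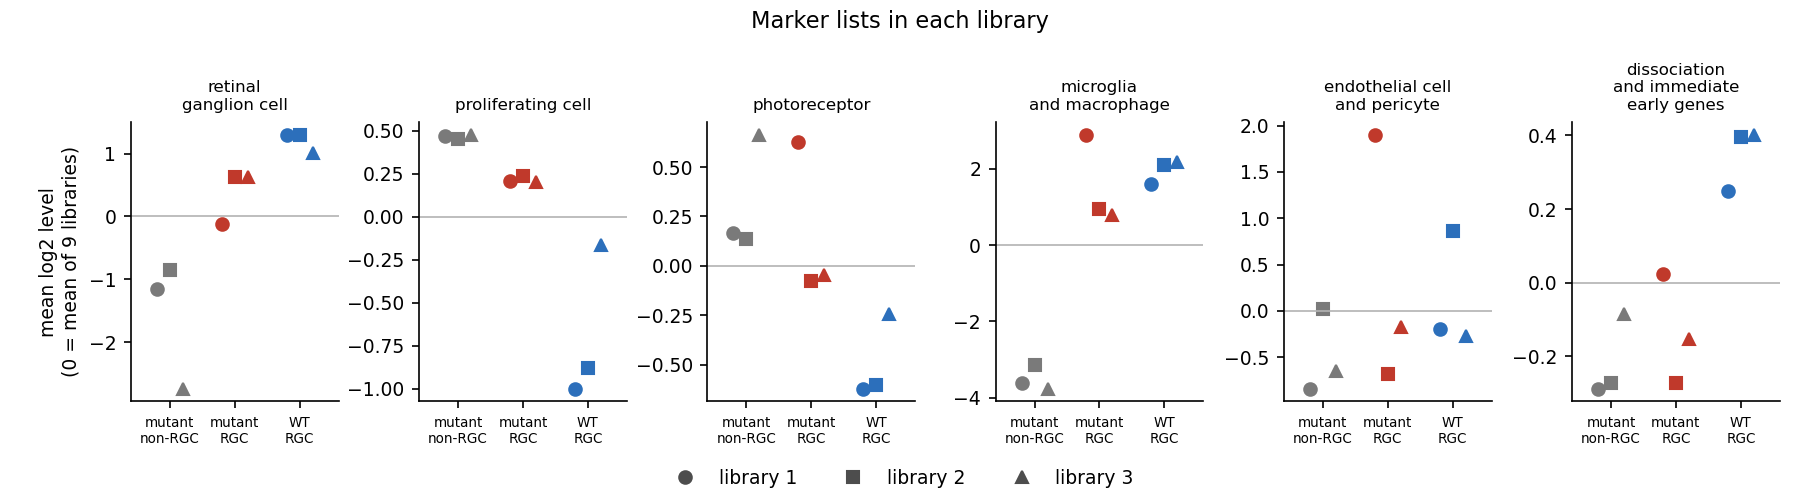
Mean log2 level of marker lists in each of the 9 libraries, each gene centred on its mean over the libraries. Points are single libraries of mutant non-RGC, mutant RGC and WT RGC, and the ganglion cell markers lie between -2.74 and -0.85, between -0.11 and 0.63, and between 1.01 and 1.29 in these groups.

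Between genotypes, 3 of the 10 genes changed. Gadd45b and Map3k12 were lower in mutant RGCs than in WT RGCs and Trp53inp1 was higher, at an adjusted p under 0.05 from limma with a variance trend on log2(normalised count + 1), with Benjamini-Hochberg adjustment over all 15276 genes tested. In the same fit 26% of all genes tested were called, so the count of 3 in 10 is close to the background. The 1 higher gene stands beside 13.7% of all genes and the 2 lower genes beside 12.3%. The authors' deposited table calls 4 of the 10, adding Nmnat2, against 11.9% of the genes to which it gives an adjusted p. The 3 mutant RGC libraries did not overlap the 3 WT RGC libraries in 7 of the 10 genes, against 51.1% of all genes tested. The median log2 fold change of the 10 genes was -0.39, beside 0.0043 over all genes tested. Between fractions of the mutant retina, 5 of the 10 genes changed, against 17.1% of the 15178 genes tested. Map3k12, Map3k13, Sarm1 and Nmnat2 were lower in the non-RGC fraction and Gadd45a was higher. In this fit 12% of all genes were called lower and 5.07% higher. The authors' deposited table calls the 4 lower genes and not Gadd45a, against 6.47% of its genes. Groups did not overlap in 6 of the 10 genes, against 37.7% of all genes tested, and the median log2 fold change was -0.24, beside 0.013 over all genes. Both comparisons share the mutant RGC libraries.

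**Figure D2:**
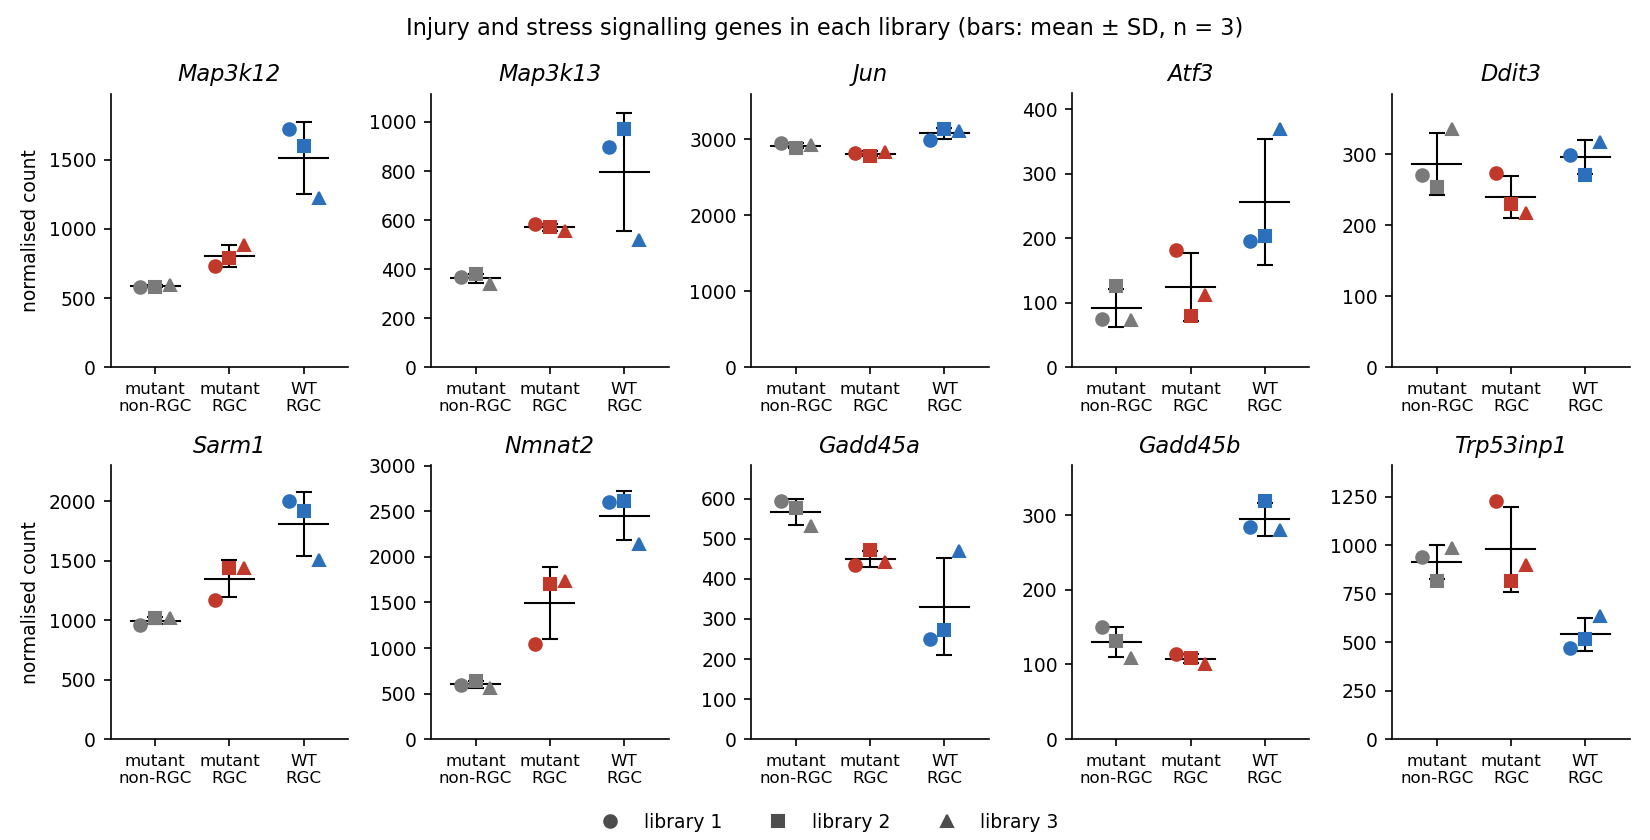
Normalised count of each of the 10 genes by library, on a scale common to the 9 libraries. Points are single libraries, and bars with whiskers are the mean ± SD of mutant non-RGC, mutant RGC and WT RGC (n = 3 each). Map3k12 and Nmnat2 step up across the 3 groups, while Jun lies between 2778 and 3132 in every library.

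The genotype calls depended on single libraries, while the fold changes of the called genes kept their direction. With each library left out, log2 fold changes stayed at -1.44 to -1.35 for Gadd45b and -1.01 to -0.77 for Map3k12. For Trp53inp1 they were 0.72 to 1.01. Without WT library 1 or 2, or without mutant RGC library 2 or 3, limma called 0 of the 10 genes, with 5 at an unadjusted p under 0.05 in each of these fits. Over all genes, 3 to 9 were called in these fits and 29.1% to 36.8% had an unadjusted p under 0.05. Over these 4 fits the adjusted p was 0.0670 to 0.107 for Map3k12, 0.0670 to 0.0911 for Gadd45b and 0.0670 to 0.110 for Trp53inp1, with directions unchanged. Without WT library 3, where 42.3% of all genes were called, 6 of the 10 genes were called: Gadd45a and Trp53inp1 were higher, and Gadd45b, Map3k12, Map3k13 and Sarm1 were lower in mutant RGCs. Without mutant RGC library 1, where 2284 of 15234 genes were called, the calls of Map3k12, Gadd45b and Trp53inp1 stood and Nmnat2 joined them (log2 fold change -0.45, limma adjusted p = 0.0436). Between fractions, the Nmnat2 call was lost without non-RGC library 1 (limma adjusted p = 0.0531). The Map3k12 call was lost without non-RGC library 1 or 2 or mutant RGC library 2 or 3 (limma adjusted p = 0.0624 to 0.0766), and the Sarm1 call without any of those or non-RGC library 3 (0.0515 to 0.107). The Gadd45a call was lost in every such fit but the one without non-RGC library 3 (0.0582 to 0.141).

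Map3k12 (chromosome 15, 102497647 to 102517004, GRCm38) encodes DLK, the kinase at the head of the injury cascade. Its normalised counts were 584, 582 and 593 in mutant non-RGC libraries, 730, 792 and 887 in mutant RGC libraries and 1720, 1597 and 1221 in WT RGC libraries. The 3 groups did not overlap, and the lowest WT value was that of library 3. Here and below, library values and means are normalised counts on a scale common to the 9 libraries, and fold changes come from each comparison's own 6 libraries. Means were 803 ± 78.9 in mutant RGC and 1512 ± 260 in WT RGC libraries (SD, n = 3 each), a log2 fold change of -0.87 with an SE of 0.15 (limma adjusted p = 0.0238). The non-RGC mean of 586 ± 6.10 lay below the mutant RGC mean, at a log2 fold change of -0.45 with an SE of 0.092 (limma adjusted p = 0.0189). The annotated span of Map3k12 overlaps that of Pcbp2 by 2422 bases and that of Tarbp2 by 928 bases. Both were expressed, at 1282 to 1531 and 352 to 567 normalised counts over the 9 libraries, and whether their reads were kept apart by strand was not given in the sources used here.

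Map3k13 (chromosome 16, 21824056 to 21933439) encodes LZK, the close relative of DLK that signals with it. It had 366, 381 and 341 normalised counts in mutant non-RGC libraries, 584, 574 and 556 in mutant RGC libraries and 899, 970 and 520 in WT RGC libraries. WT libraries 1 and 2 were the highest of all 9, but WT library 3 fell below every mutant RGC library, so those groups overlapped. Against WT the log2 fold change was -0.39 (SE 0.22, limma adjusted p = 0.217), and it was -0.28, -0.23 and -0.67 without WT library 1, 2 and 3 (limma adjusted p = 0.489, 0.510 and 0.00210). Between fractions the non-RGC libraries lay below all mutant RGC libraries, at a log2 fold change of -0.66 with an SE of 0.082 (limma adjusted p = 0.00711). Of the 5 calls between fractions, that of Map3k13 alone held without any single library, with limma adjusted p-values of 0.00397 to 0.0457, though it reached 0.0566 when all 9 libraries were fitted together.

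Jun (chromosome 4, 95049036 to 95052222), the JNK target that drives the transcriptional injury program, was nearly level. It had 2951, 2880 and 2924 normalised counts in mutant non-RGC libraries, 2821, 2778 and 2835 in mutant RGC libraries and 2992, 3132 and 3110 in WT RGC libraries. The groups of normalised counts did not overlap, but they lay close, with means of 2811 ± 29.3 in mutant RGC and 3078 ± 75.6 in WT RGC libraries. Raw reads were 3068, 2974 and 2843 in mutant non-RGC, 3049, 2977 and 2912 in mutant RGC, and 3044, 2976 and 2838 in WT RGC. These overlapped in both comparisons, so the separation appeared only after division by size factors. The log2 fold change was -0.096 (SE 0.057, limma adjusted p = 0.230) against WT and 0.053 (SE 0.048, limma adjusted p = 0.505) between fractions. Reads of Jun were dense. Its raw reads were 2838 to 3068 in the 9 libraries over a gene span of 3187 bases, or 0.930 reads per base. This ranked 15 among 29637 genes with a span. The span counts introns as well as exons, so in poly(A) RNA the measure understates the density of genes with introns. The table names show that duplicate reads were removed before counting, which limits how many single reads can start at a position. The SD of its log2 level over the 9 libraries was 0.0606, against a median of 0.177 over 1152 genes with 2000 to 4000 mean reads, of which 3.56% had a spread no larger. Other immediate early genes lay in the same range of density, with 0.955 reads per base for Egr1, 0.940 for Ier2, 0.753 for Junb and 0.729 for Fos (Egr1 and Ier2 were chosen after their values were seen). Their SDs were larger than that of Jun, at 0.147 for Egr1, 0.225 for Ier2, 0.262 for Junb and 0.227 for Fos. Hnrnpa0 and Pcbp1, also chosen after their values were seen, were denser than Jun, at 1.35 and 1.297 reads per base. The SD of Hnrnpa0 was no larger than that of Jun, and the SD of Pcbp1 was 0.0838. Among genes spanning at most 4000 bases, the median SD was 0.587 below 0.01 reads per base, 0.534 from 0.01 to 0.03 and 0.348 from 0.03 to 0.1. It was 0.183 from 0.1 to 0.3, 0.170 from 0.3 to 0.6 and 0.161 between 0.6 and 2, so it changed little above 0.1 reads per base. Short genes in the lowest range have few reads, so their SD holds more counting error. Atf3 had 0.0120 and Ddit3 0.0502 reads per base, over spans of 13038 and 5499 bases that include any introns. The part of duplicate removal in the level of Jun was not tested.

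**Figure D3:**
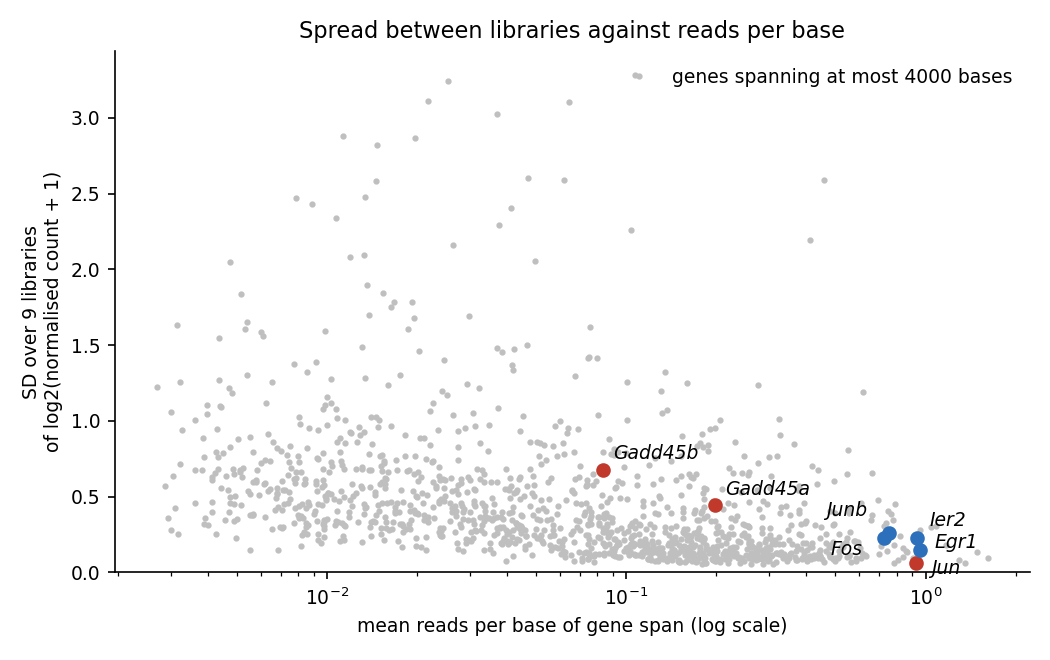
Spread between the 9 libraries (SD of log2(normalised count + 1)) against the mean reads per base of gene span on a log scale, for genes spanning at most 4000 bases. Jun lies at 0.930 reads per base with an SD of 0.0606, and Gadd45a and Gadd45b lie at 0.197 and 0.0834 reads per base with larger spreads.

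Atf3 (chromosome 1, 191170296 to 191183333), an injury-induced partner of Jun, was low and variable. It had 75.0, 126 and 74.0 normalised counts in mutant non-RGC libraries, 182, 79.3 and 112 in mutant RGC libraries and 196, 204 and 369 in WT RGC libraries. All WT libraries lay above all mutant libraries of either fraction, by a narrow margin between WT library 1 and mutant RGC library 1. The means were 125 ± 52.6 in mutant RGC and 256 ± 97.9 in WT RGC libraries (SD, n = 3 each). The log2 fold change of -1.02 (SE 0.36) was not called (limma adjusted p = 0.0731). Among the alternatives it was called when all 9 libraries were fitted together (0.0474), and its adjusted p was 0.0501 to 0.182 with 1 library left out. Between fractions the groups overlapped (log2 fold change -0.40, SE 0.34, limma adjusted p = 0.466). The log2 ratio of Atf3 to Jun within a library, which does not depend on its size factor, was -3.94, -5.11 and -4.65 in mutant RGC and -3.93, -3.93 and -3.07 in WT RGC libraries. The groups did not overlap, at an exact two-sided permutation p of 0.1, the smallest that 3 against 3 allow, and 0.2 after adjustment over 10 ratios. Raw reads of Jun were nearly level, at 2838 to 3068, so this ratio mostly follows the raw reads of Atf3.

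Ddit3 (chromosome 10, 127290793 to 127296291) encodes CHOP, the factor that the unfolded protein and integrated stress responses induce. Its normalised counts were 270, 254 and 335 in mutant non-RGC libraries, 274, 230 and 217 in mutant RGC libraries and 299, 270 and 318 in WT RGC libraries. The groups overlapped in both comparisons, with log2 fold changes of -0.27 (SE 0.13, limma adjusted p = 0.142) against WT and 0.25 (SE 0.14, limma adjusted p = 0.282) between fractions.

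The promoters were searched for letters of motifs known for stress-activated factors. RefSeq promoters of GRCm38.p6, from 250 bases before to 50 after a listed start, were found for 9 of the 10 genes. Map3k12 had a pair of starts, the second inside its annotated span. The only Map3k13 window, 21891719 to 21892018, also lies inside the span of its gene, so its match is not at the annotated 5' end. Trp53inp1 was not matched. They were searched on both strands for the AP-1 motif TGANTCA, the cyclic AMP response element TGACGTCA, its variant TNACNTCA, which includes the element itself, and the C/EBP-ATF composite motif TGATGNAA. Letters of these motifs were found in 5 members. AP-1 letters were found in 1 of the 9 and in 7.81% of all 32851 promoters, variant letters in 4 and in 16.4%, and composite letters in 2 and in 3.97%. The full response element was found in none of the 9 and in 1.79% of all promoters. The matches below are shown on the strand of the gene with the matched letters in capitals, because these patterns are used for AP-1, ATF and C/EBP-ATF sites. The variant pattern is loose, and no match was compared with known binding sites.
Jun, chr4:95052240-95052287, minus strand: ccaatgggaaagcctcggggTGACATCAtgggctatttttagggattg
Jun, chr4:95052359-95052406, minus strand: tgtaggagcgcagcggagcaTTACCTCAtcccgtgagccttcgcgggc
Atf3, chr1:191183334-191183363, minus strand: cctggaagctattaatagcaTTACGTCAgc
Atf3, chr1:191183416-191183463, minus strand: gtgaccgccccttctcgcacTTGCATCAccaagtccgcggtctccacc
Ddit3, chr10:127290543-127290577, plus strand: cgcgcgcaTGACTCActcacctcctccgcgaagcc
Map3k12, second start, chr15:102510780-102510827, minus strand: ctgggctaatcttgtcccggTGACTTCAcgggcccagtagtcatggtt
Map3k13, chr16:21891880-21891927, plus strand: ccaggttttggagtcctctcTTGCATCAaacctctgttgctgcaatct
The Jun match nearest the start begins at base -45 and the Atf3 match nearest the start at base -10. A variant match at base -3 of Ddit3, which crosses the start, is not shown. A match is a description of letters and not evidence of binding in these cells.

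Both axon degeneration genes were lower in the non-RGC fraction. Nmnat2 (chromosome 1, 152954781 to 153119266), the labile axonal enzyme whose loss starts degeneration, had 599, 636 and 567 normalised counts in mutant non-RGC libraries, 1044, 1699 and 1740 in mutant RGC libraries and 2600, 2614 and 2139 in WT RGC libraries. The 3 groups did not overlap, and mutant RGC library 1 was the lowest of its group. The means were 601 ± 34.8 in mutant non-RGC, 1494 ± 391 in mutant RGC and 2451 ± 271 in WT RGC libraries (SD, n = 3 each). Between fractions the log2 fold change was -1.28 (SE 0.20, limma adjusted p = 0.0103). Against WT it was -0.71 (SE 0.22), which did not pass (limma adjusted p = 0.0527), while the authors' deposited table gives an adjusted p of 0.0143.

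Sarm1 (chromosome 11, 78470273 to 78497816), the NAD hydrolase that executes axon degeneration, had 959, 1015 and 1014 normalised counts in mutant non-RGC libraries, 1172, 1435 and 1441 in mutant RGC libraries and 2002, 1917 and 1503 in WT RGC libraries. The groups did not overlap, and WT library 3 came closest to the mutant. Its log2 fold change was -0.38 (SE 0.14, limma adjusted p = 0.0833) against WT and -0.43 (SE 0.099, limma adjusted p = 0.0267) between fractions. The span of Sarm1 overlaps that of Slc46a1, at 233 to 561 normalised counts, by 1673 bases. The log2 ratio of Sarm1 to Nmnat2 was 0.68, 0.67 and 0.84 in mutant non-RGC, 0.17, -0.24 and -0.27 in mutant RGC and -0.38, -0.45 and -0.51 in WT RGC libraries. The ratio did not overlap between groups, and it differed by 0.85 between fractions and by 0.33 between genotypes, each at an exact two-sided permutation p of 0.1, the smallest possible, and 0.2 after adjustment over the 10 ratios tested.

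Ganglion cell markers moved alongside these genes: 10 of the 26 fell in mutant RGCs against WT RGCs, beside 12.3% of all genes, and 15 of the 26 fell in non-RGC against RGC fractions, beside 12%, by the same limma test. After subtraction of each library's mean log2 level of the 26 markers, a measure chosen after the data were seen, Map3k12 differed between mutant RGC and WT RGC libraries by -0.084 on the log2 scale, and its groups overlapped. Nmnat2 differed by 0.073 and Sarm1 by 0.40, without overlap. Gadd45b differed by -0.62 with overlapping groups and Trp53inp1 by 1.66 without overlap. Between mutant non-RGC and mutant RGC libraries the same subtraction gave differences of 1.52 for Map3k12, 1.31 for Map3k13, 1.53 for Sarm1 and 0.69 for Nmnat2, without overlap. All 4 were higher in the non-RGC libraries on this relative scale, opposite to their fold changes. The other members were higher as well, such as Jun by 2.02, Ddit3 by 2.21 and Trp53inp1 by 1.88, all but Atf3 without overlap. The markers' own mean log2 level was -2.74 to -0.85 in mutant non-RGC and -0.11 to 0.63 in mutant RGC libraries. Any gene that fell less than the markers becomes higher after subtraction, so the higher relative level is not particular to these 4 genes. The part of the share of ganglion cells in the values of these genes was not tested further.

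**Figure D4:**
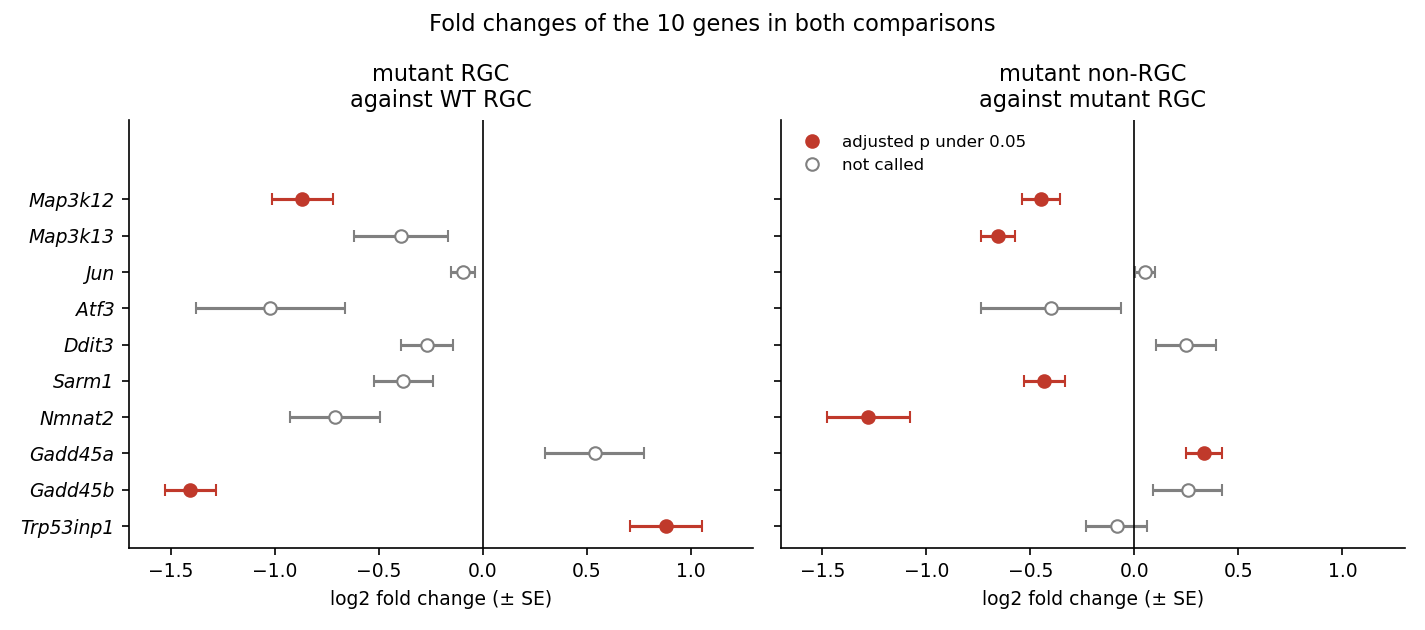
Log2 fold change with its SE for the 10 genes, from limma on log2(normalised count + 1), for mutant RGC against WT RGC and for mutant non-RGC against mutant RGC (n = 3 libraries each). Filled points have an adjusted p under 0.05: Map3k12, Gadd45b and Trp53inp1 between genotypes, and Map3k12, Map3k13, Sarm1, Nmnat2 and Gadd45a between fractions.

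Gadd45b was lower in mutant RGCs, and its paralogue Gadd45a was not called between genotypes. Both encode small stress-induced proteins that bind the kinase Map3k4 and cell cycle proteins, and Gadd45a is a classical p53 target. Gadd45b (chromosome 10, 80930091 to 80932204) had 150, 131 and 109 normalised counts in mutant non-RGC libraries, 114, 108 and 101 in mutant RGC libraries and 284, 319 and 279 in WT RGC libraries. All WT libraries lay far above all mutant libraries, and the mutant fractions overlapped. The means of 108 ± 6.30 in mutant RGC and 294 ± 21.6 in WT RGC libraries (SD, n = 3 each) gave a log2 fold change of -1.41 with an SE of 0.12 (limma adjusted p = 0.0127), with a fitted fold of 0.378. Between fractions the log2 fold change was 0.26 (SE 0.17, limma adjusted p = 0.338).

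Gadd45a (chromosome 6, 67035096 to 67037407) had 594, 577 and 532 normalised counts in mutant non-RGC libraries, 436, 472 and 441 in mutant RGC libraries and 250, 272 and 469 in WT RGC libraries. WT libraries 1 and 2 were the lowest of the 9, while WT library 3 lay within the mutant RGC range. Against WT the log2 fold change was 0.54 (SE 0.24, limma adjusted p = 0.127), and it was 0.37, 0.42 and 0.82 without WT library 1, 2 and 3 (limma adjusted p = 0.346, 0.309 and 0.00307). Between fractions Gadd45a was higher in non-RGC libraries, at a log2 fold change of 0.33 with an SE of 0.086 (limma adjusted p = 0.0388). In the authors' deposited table its adjusted p is 0.264. The log2 ratio of Gadd45b to Gadd45a was -1.93, -2.11 and -2.11 in mutant RGC and 0.19, 0.23 and -0.75 in WT RGC libraries. Its difference of -1.94 had an exact two-sided permutation p of 0.1, the smallest possible, and 0.2 after adjustment over 10 ratios. The 100 bases before the starts of both genes held none of the 4 motifs and are shown to set the paralogues side by side.
Gadd45b, chr10:80929991-80930090, plus strand: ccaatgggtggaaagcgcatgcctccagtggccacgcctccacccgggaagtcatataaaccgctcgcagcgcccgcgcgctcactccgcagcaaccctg
Gadd45a, chr6:67037408-67037507, minus strand: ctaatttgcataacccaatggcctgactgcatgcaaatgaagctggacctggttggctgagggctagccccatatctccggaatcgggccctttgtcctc

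Trp53inp1 (chromosome 4, 11156441 to 11174379), a p53 target that promotes p53 activity and autophagy, was the 1 member called higher in mutant RGCs. It had 938, 815 and 985 normalised counts in mutant non-RGC libraries, 1228, 816 and 896 in mutant RGC libraries and 469, 516 and 637 in WT RGC libraries. All mutant libraries lay above all WT libraries, with mutant RGC library 1 the highest. Means of 980 ± 219 in mutant RGC and 540 ± 86.6 in WT RGC libraries (SD, n = 3 each) gave a log2 fold change of 0.88 with an SE of 0.17 (limma adjusted p = 0.0251). The mutant fractions overlapped (log2 fold change -0.085, SE 0.15, limma adjusted p = 0.740). Proliferation markers were also higher in mutant RGCs than in WT RGCs, for 19 of 20, beside 13.7% of all genes. WT library 3 was highest of its group in both, but mutant RGC library 1 had the most Trp53inp1 and the lowest proliferation sum. Between fractions 10 of the 20 were called higher in non-RGC libraries, beside 5.07% of all genes. Photoreceptor markers were higher in mutant RGCs for 7 of 17 and progenitor and Mueller glia markers for 5 of 19, beside 13.7% of all genes. Amacrine cell markers were higher for 7 of 14 and lower for 3, beside 13.7% and 12.3%. In each group the sums of the photoreceptor, progenitor and amacrine lists were all highest in the library with the most Trp53inp1. After subtraction of each library's mean log2 level of the 20 proliferation markers, the genotypes differed in Trp53inp1 by -0.052 and overlapped, and in Gadd45a by -0.40 without overlap. The part of proliferating cells, photoreceptors, progenitors or amacrine cells in these values was not tested further.

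The wider pathways were read from 8 lists holding 155 genes. The JNK cascade and its upstream kinases were lower in mutant RGCs for 8 of 23 tested genes, against 12.3% of all genes tested, and the other 15 were not called. The median log2 fold change of the list was -0.32. Mapk10, the neuronal JNK3, averaged 1139 ± 235 normalised counts in mutant RGC and 2166 ± 448 in WT RGC libraries (log2 fold change -0.89, limma adjusted p = 0.0328). Mycbp2, the ubiquitin ligase that restrains DLK and also degrades Nmnat2, had a log2 fold change of -0.60 (limma adjusted p = 0.0307), and Dusp8, a phosphatase of JNK, had -0.54 (limma adjusted p = 0.0238). Between fractions 8 of the 23 were lower in non-RGC libraries, against 12% of all genes, led by Mapk10 (-1.22) and the kinases Map3k9 (-0.95) and Map3k5 (-0.66). Mink1, a kinase upstream of JNK, was the 1 gene of the list called higher, at 0.53 (limma adjusted p = 0.0316).

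Partners of Jun and Atf3 were lower in mutant RGCs for 6 of 15 tested AP-1 and ATF genes, beside 12.3% of all genes, with a list median of -0.22. Fosl2 had the largest fall, averaging 165 ± 5.38 normalised counts in mutant RGC and 1337 ± 616 in WT RGC libraries (log2 fold change -2.84, limma adjusted p = 0.0215). The small Maf proteins Maff (-0.81) and Mafk (-0.73), the AP-1 repressor Jdp2 (-0.52), Junb (-0.45) and Fos (-0.33) were also called. Between fractions Fosl2 was the 1 gene of the 15 called, at -1.28 (limma adjusted p = 0.0248), beside 12% of all genes called lower. Dissociation and immediate early genes, which tissue digestion can induce, were lower in mutant RGCs for 9 of 30, beside 12.3% of all genes, with Nr4a3 (-3.28), Npas4 (-2.47) and Nr4a1 (-1.66) furthest. The mean log2 level of this list was -0.27 to 0.024 in mutant RGC and 0.25 to 0.40 in WT RGC libraries, in the same direction as Atf3 and Gadd45b. Its part in their levels was not tested. Fos, Fosb and Junb stand in both this list and the AP-1 list, so both counts hold the calls of Fos and Junb.

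The integrated stress and unfolded protein response list had 5 of 25 tested genes higher and 4 lower in mutant RGCs, beside 13.7% and 12.3% of all genes, and a median of 0.010. These counts lie near the background. The eIF2 kinase Eif2ak2 (0.95), the C/EBP factor Cebpg (0.49) and the chaperone Pdia4 (0.45) were higher, while Cebpb (-1.30), the glutathione-degrading enzyme Chac1 (-1.13) and the asparagine synthetase Asns (-0.55) were lower. Chac1 and Asns are targets of Atf4 in this response, as Ddit3 is. Between fractions Asns alone of the 25 was called, at -0.54 in non-RGC libraries (limma adjusted p = 0.0308), beside 12% of all genes called lower.

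Of the NAD and axon degeneration list, 3 of 15 tested genes were higher and 4 lower in mutant RGCs, beside 13.7% and 12.3% of all genes, with a median of -0.037. Nmnat3, the mitochondrial relative of Nmnat2, averaged 80.6 ± 23.2 normalised counts in mutant RGC and 35.0 ± 10.5 in WT RGC libraries (log2 fold change 1.22, limma adjusted p = 0.0359). The calpain inhibitor Cast (0.62) and the NAD-consuming Parp1 (0.49) were higher. The calpain Capn1 (-1.09), the nicotinamide riboside kinase Nmrk1 (-0.92) and Mycbp2 were lower. Between fractions 2 of the 15 were higher in non-RGC libraries, beside 5.07% of all genes, namely Nadsyn1 (0.66) and the nuclear Nmnat1 (0.39). The 3 lower genes, beside 12% of all genes, were Capn1 (-2.02), the axon protective Stmn2 (-0.65) and Capn2 (-0.35).

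In the p53 list, 3 of 24 tested genes were higher in mutant RGCs, beside 13.7% of all genes and so near the background, namely Trp53 itself (0.42), the apoptosome gene Apaf1 (0.29) and the p53 inhibitor Mdm2 (0.26), and the list median was -0.11. The 5 lower genes, beside 12.3% of all genes, included the classical targets Bbc3 (-0.98), Plk2 (-0.91) and Cdkn1a (-0.85), in the direction opposite to Trp53inp1. Cdkn1a averaged 766 ± 155 normalised counts in mutant RGC and 1400 ± 123 in WT RGC libraries (limma adjusted p = 0.0262). Between fractions 3 of the 24 were lower in non-RGC libraries, near the 12% of all genes, namely Plk2 (-0.41), Rrm2b (-0.34) and Ccng1 (-0.31). Among 7 GADD45 relatives and partners, with a median of 0.34, the mitotic kinase Cdk1 (0.91) and its cyclin Ccnb1 (1.25) were higher in mutant RGCs, beside 13.7% of all genes, and both also stand in the list of proliferation markers. Between fractions they were higher in non-RGC libraries, by 0.33 and 0.25, beside 5.07% of all genes.

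Axon regeneration associated genes were lower in mutant RGCs for 9 of 19 tested, beside 12.3% of all genes, with a median of -0.36. The neuropeptide gene Adcyap1 averaged 127 ± 46.1 normalised counts in mutant RGC and 539 ± 119 in WT RGC libraries (log2 fold change -2.09, limma adjusted p = 0.0238), and the small heat shock gene Hspb1 (-1.64) and the adhesion gene Chl1 (-1.31) followed. Between fractions 12 of the 19 were lower in non-RGC libraries, beside 12% of all genes, with Chl1 (-2.75), Adcyap1 (-2.68) and the neuropeptide gene Gal (-1.56) furthest. Sox11, Gap43 and Stmn2 of this list also stand in the list of ganglion cell markers. Across all 8 lists, with shared genes counted once, 53 of 147 tested genes (36.1%) were called between genotypes, beside 26% of all genes. Leaving out WT library 3 gave 76 calls beside 6478 over all genes, mutant RGC library 1 gave 33 beside 2284, and mutant RGC library 3 gave 2 beside 9. Leaving out mutant RGC library 2, WT library 1 or WT library 2 gave 0 calls by limma, with 67, 61 and 60 genes at an unadjusted p under 0.05, and 3, 9 and 8 calls over all genes. Between fractions 33 of the 147 (22.4%) were called, beside 17.1% of all genes. Leaving out non-RGC library 1 and 2 gave 5 and 13 calls, beside 438 and 1243 over all genes, and leaving out mutant RGC library 2 and 3 gave 6 each, beside 595 and 621.

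**Figure D5:**
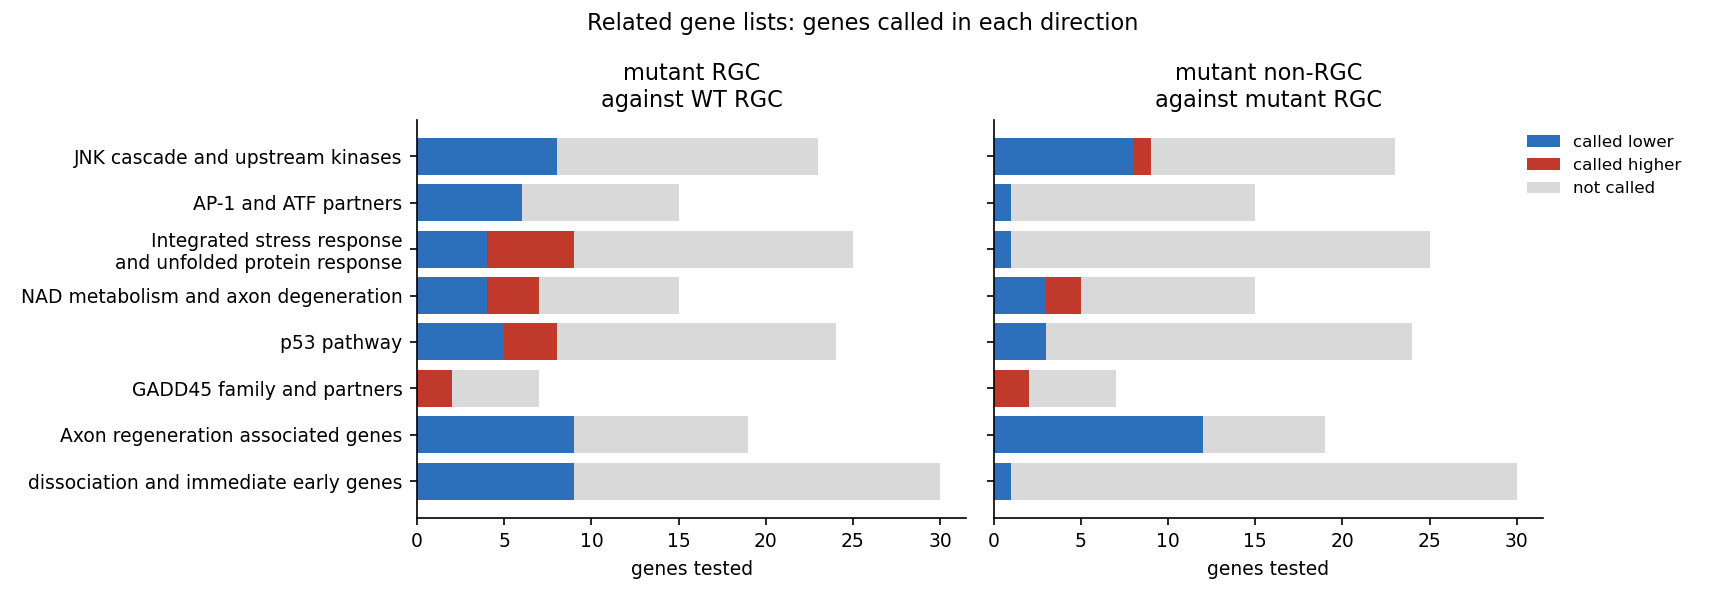
Number of genes tested in each of the 8 lists, divided into those called lower, called higher and not called at an adjusted p under 0.05 from limma, for mutant RGC against WT RGC and for mutant non-RGC against mutant RGC. The bars for JNK, AP-1, regeneration and immediate early genes hold 8, 6, 9 and 9 lower calls between genotypes.

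Genes with patterns like those of the most variable members were sought over the 9 libraries among 11931 genes with a mean of at least 50, by the root mean square difference of centred log2 levels. Nmnat2 (SD 0.91) was closest to Cd200, at 0.0640, followed by Fndc5 at 0.0801 and Mmp24 at 0.0829. Atf3 (SD 0.79) had less close neighbours, Nfkbiz at 0.325, Cebpb at 0.375 and Nfkbid at 0.380. Gadd45b (SD 0.68) was closest to Il3ra at 0.20, Baiap2l2 at 0.250 and Ehbp1l1 at 0.251. The distances describe likeness over libraries that share cell mixture and depth.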

How the data were processed

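The deposited tables hold 2 comparisons by the authors. Per the file headers they list mean normalised counts per condition, the fold change as a ratio, its log2 value, and the p-value and adjusted p-value. Per the submitters' processing notes, the authors handled reads with STAR 2.3, featureCounts and DESeq on mm10. The strand setting was not given in the sources used here. Whole read counts of each library were solved from the deposited condition means, each a sum of 3 whole counts divided by 3 times a size factor. This settled 99.9745% to 100% of genes above 0 in a condition, with a distance from whole numbers of at most 1.34e-10, and mutant RGC counts recovered from both tables were identical in 23953 of 23953 genes. The condition shared by both tables, with the same genes at 0, was taken as mutant RGC. Recovered libraries cannot be tied to single samples. Genes with a mean of at least 10 were tested with limma 3.58.1 (R 4.3.3) on log2(normalised count + 1), checked on simulated data, with 0.05 as the threshold of the Benjamini-Hochberg adjusted p. This scale understates fold changes of low genes. Within-library ratios were compared by exact permutation tests. Coordinates and promoters are from RefSeq GRCm38.p6. Other scalings, pseudocounts, filters, voom weights, a fit of all 9 libraries and fits without each library were tried. The members and lists were chosen with earlier results of these data known. Named list genes are all called members if at most 6, otherwise the 3 with the largest rise and the 3 with the largest fall, plus the 3 genes nearest to each of the 3 most variable members. The other 9 RNA libraries, 12 chromatin libraries and protein sequences were not analysed here.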

Additional observations from a re-analysis of the deposited data

How the results depend on the processing

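No paired analysis was possible because the tables carry no replicate numbers. Of the fold changes of the 10 genes in both comparisons, 170 of 180 values under other scalings, pseudocounts, filters and tests kept their direction and their side of the threshold, 6 gained a call and 4 lost one. With 1 library left out, 88 of 120 were kept, 4 gained a call, 27 lost one and 1 changed sign: Trp53inp1 between fractions had a log2 fold change of 0.077 without mutant RGC library 1, in a range of -0.20 to 0.077 over libraries left out. Between genotypes, leaving out 1 library gave 3 to 6478 genes called (3971 with all), 0 to 6 of the 10 genes and 0 to 76 genes of the lists. Between fractions it gave 438 to 3325 genes (2590 with all), 1 to 4 of the 10 genes and 5 to 40 genes of the lists. Fitting all 9 libraries together called 6 of the 10 genes between genotypes, beside 34.1% of all genes, and 3 between fractions, beside 15.1%. The authors' deposited test between fractions called 1635 genes and 20 genes of the lists. Between fractions the calls split into 770 higher and 1820 lower, against 1465 and 1598 with total-count scaling and 1298 and 1639 with upper-quartile scaling. Gadd45a between fractions lost its call without a filter on low values (limma adjusted p = 0.0568). The cause was not tested in these cases. Atf3 had 72 to 337 reads per library. The SD of its raw reads over all 9 libraries, group differences and depth included, was 85.3, where counting alone gives 12.5.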
